A study of Sus scrofa with 32 samples.

Results

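Immediate early genes are switched on within minutes of a stimulus, from factors already present in the cell, and most of their products are transcription factors that act on later genes. In skeletal muscle they are known to respond to contraction, stretch, injury and loss of oxygen, and their transcripts are short-lived, so that their level in a sample also depends on the moment at which the tissue was fixed. The genes followed here were *FOS*, *FOSB* and *JUNB*, whose products join as dimers of the AP-1 factor, the stress-induced bZIP factor *ATF3*, the zinc finger factor *EGR1*, the orphan nuclear receptors *NR4A1*, *NR4A2* and *NR4A3*, and the immediate early response genes *IER2* and *IER5*. Members were the named genes whose pig Ensembl ID is in the gene table. This held for 8 of the 10 named genes, out of 25322 gene IDs, while the IDs of *FOSB* and *NR4A1* were not matched in the table and these genes were not analysed here.

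RNA was sequenced from 16 gilts labelled as 180 days old, 8 of the Pulawska breed (PUL) and 8 of Polish Landrace (PL). The samples were of a loin muscle, longissimus dorsi (LD), and a ham muscle, semimembranosus (S). Each pig gave 1 library of each muscle, for 32 libraries in 4 groups of 8. The study fed the pigs to a set body weight, with slower daily gain in PUL, and reports age at slaughter as a trait. Ages of single pigs may therefore differ from the label. PUL is a native Polish breed and PL a lean white breed, and all gilts were kept at the same station under the same housing and feeding. The labels class PUL as high and PL as low in shear force, a measure of toughness, whereas the text of the study calls the meat of PL the less tender, so the groups are named here by breed alone. The animals were fasted and electrically stunned before slaughter, and the muscle was taken afterwards, so every level below is that of post-mortem tissue. The study reports immediate collection, with an upper limit in minutes, into a stabilising solution, and gives RNA integrity as a range. Neither the order of slaughter nor the delay for single pigs is labelled. The comparisons asked whether the breeds differ in each muscle, whether the muscles of a pig differ, and whether the genes move together across pigs.

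The libraries held from 8821273 to 24761853 counts, and the share of the 10 most abundant genes was 27.4% to 48.9%. The 4 skeletal muscle markers with an ID (*ACTA1*, *MYBPC1*, *MYBPC2* and *DES*) were above 0 in every group and summed to between 37672 and 173879 CPM (counts scaled to a common library size) per library. The libraries of PUL pigs 1 to 5 carried RNA of hepatocyte genes, with *ALB*, the serum albumin gene, at 7.67 to 920 CPM, against 4.27 CPM at most in the other pigs. In PL pig 14 the LD and S libraries deviated from their group means in opposite directions over all tested genes (r = -0.50), whereas the same r was between -0.05 and 0.62 in the other 15 pigs. The labels were used as given and whether the libraries of this pig carry the right ones was not tested, and the comparisons between the muscles of a pig rest on them.

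FOS, the partner of JUN proteins in AP-1 and the classic marker of acute stimulation, had the widest range. In LD its level in PUL was 11.5 CPM at the lowest, 111 at the median and 1146 at the highest, and in PL 211, 427 and 1901 CPM. In S it was 66.7, 286 and 1798 CPM in PUL and 283, 506 and 960 CPM in PL. The groups overlapped in both muscles, but the low end was held by PUL alone. PUL pigs 5, 13, 16 and 17 were the 4 lowest of the 16 pigs in both LD and S, and in LD they formed a cluster of their own, none being above 28.2 CPM while the lowest of the other 12 pigs was at 195 CPM. The highest library was that of PL pig 8 in LD and that of PUL pig 1 in S. JUNB, the other AP-1 protein measured, was at 2.67, 7.77 and 25.8 CPM in PUL LD (lowest, median, highest) and at 5.18, 17.3 and 47.2 CPM in PL LD. In S, the corresponding values were 5.08, 13.3 and 37.1 CPM in PUL and 5.42, 12.9 and 48.9 CPM in PL, so that the medians lay apart in LD and together in S.

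ATF3, which is induced by many kinds of cell stress and mostly acts as a repressor, ranged over 86.5, 181 and 254 CPM in PUL LD and over 93.3, 219 and 722 CPM in PL LD (lowest, median and highest). In S it ranged over 26.2, 197 and 949 CPM in PUL and over 109, 305 and 1076 CPM in PL. The groups overlapped in both muscles, with 3 PL pigs above every PUL pig in LD and 1 in S. EGR1, a zinc finger factor induced by growth signals and contraction, was at 0.98, 3.62 and 49.6 CPM in PUL LD, at 3.77, 10.5 and 68.3 CPM in PL LD, at 4.23, 17.9 and 141 CPM in PUL S and at 3.06, 18.1 and 28.0 CPM in PL S. In S the 2 highest EGR1 libraries were from PUL, above every PL pig.

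NR4A2 and NR4A3 are nuclear receptors that act without a known hormone and are linked in muscle to the response to exercise and adrenergic signals. NR4A2 was at 0.60, 6.36 and 53.0 CPM in PUL LD and at 14.3, 30.7 and 93.0 CPM in PL LD (lowest, median, highest), and 7 of the 8 PUL pigs lay below every PL pig. The exception was PUL pig 4, which was above all PL pigs but 1. In S, NR4A2 was at 1.95, 9.84 and 24.3 CPM in PUL and at 12, 37.0 and 63.8 CPM in PL, and 5 PL pigs lay above every PUL pig. NR4A3 was at 1.19, 8.0 and 12.6 CPM in PUL LD, at 5.55, 10.3 and 44.1 CPM in PL LD, at 2.51, 18.1 and 87.5 CPM in PUL S and at 1.97, 10.9 and 184 CPM in PL S. In PL S, NR4A3 thus spanned 93.4-fold between pigs 14 and 15.

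IER2 and IER5 are small nuclear proteins, and IER5 is known to help activate the heat shock factor HSF1. IER2 had few reads, between 3 and 77 counts per library, so its values carry more counting error than those of the other members. It was at 0.21, 0.65 and 2.33 CPM in PUL LD, at 0.53, 1.44 and 2.48 CPM in PL LD, at 0.70, 1.67 and 5.34 CPM in PUL S and at 0.64, 1.80 and 3.75 CPM in PL S. IER5 was at 4.69, 8.08 and 10.6 CPM in PUL LD, at 4.03, 8.98 and 47.2 CPM in PL LD, at 0.87, 6.28 and 22.6 CPM in PUL S and at 4.08, 13.5 and 25.8 CPM in PL S. The breeds overlapped in both muscles for both genes, but for IER5 in LD 4 of the 8 PL pigs lay above every PUL pig.

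**Figure D1:**
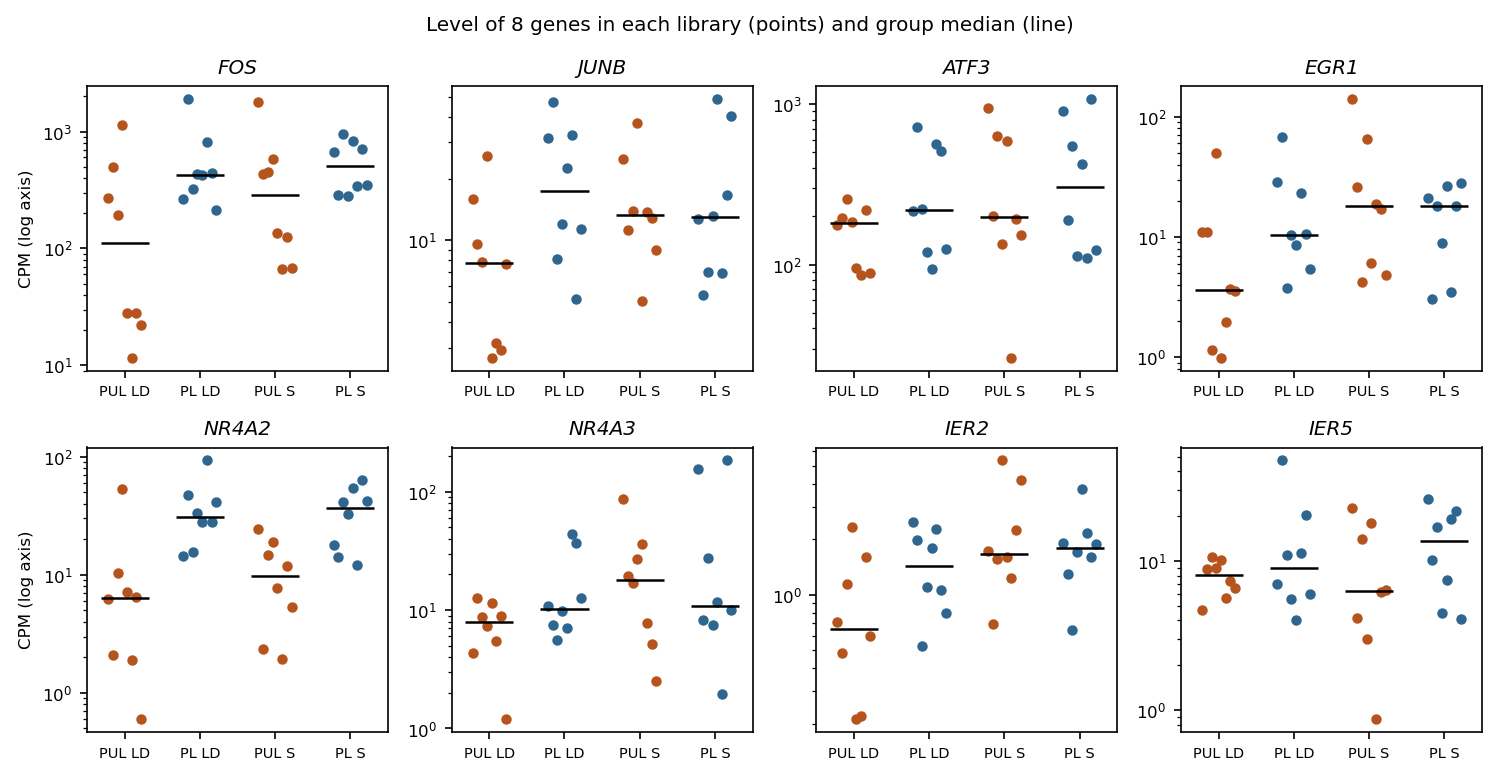
Level of each gene in each library, in CPM on a log axis, by breed and muscle. Points are pigs in order of pig number (8 per group; brown PUL, blue PL) and lines are medians. The 4 low FOS libraries of PUL LD sit at or below 28.2 CPM, apart from all others in LD.

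The spread within groups was wide for most of these genes. The SD of log2(CPM + 0.5) over the 8 pigs of a group was 2.43 for FOS in PUL LD, at percentile 99.9 of the tested genes, where the median gene had 0.44. It was 2.17 for NR4A3 in PL S, also at percentile 99.9, and 1.72 and 1.76 for EGR1 in PUL LD and PUL S, at percentiles 99.4 in each. The lowest was IER5 in PUL LD, whose SD of 0.39 lay at percentile 40.4. These SDs are the spread between pigs, against which the breed differences below have to be read. Comparisons between the muscles are paired within pigs and have another error. The SD of the log2 difference between S and LD in PUL was 1.33 for FOS and 1.36 for IER5.

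In LD the question was whether PL and PUL differed, and no member passed the threshold (adjusted p at or under 0.05 and a fold change of at least 1.3, edgeR's quasi-likelihood test). The same held for all of the 10792 genes tested, of which 0.0% were called and 772 had an unadjusted p under 0.05, while DESeq2 called 19 genes (0.176%) and edgeR's exact test 13, none of them members. The fitted difference was higher in PL for 8 of 8 members, where 50.8% of all genes were higher in PL, and 4 of the 8 members had an unadjusted p under 0.05 with PL higher, against 3.64% of all genes. The median log2 fold change of the members was 1.06, against 0.0052 over all genes. The members varied together across pigs, as described further below. Counts of members, here and in the later comparisons, are therefore not counts of independent genes. With library size alone as the scaling, the median of all genes moved to -0.18 and that of the members to 0.80, which is 0.97 above all genes, and all 8 members were still higher in PL, 1 of them with an unadjusted p under 0.05.

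NR4A2 had the largest fitted breed difference in LD among the members, with a log2 fold change (PL over PUL) of 1.77 ± 0.67 (SE, unadjusted p = 0.0164, edgeR, adjusted p = 0.555). Without the LD library of PUL pig 4 it was 2.92 (adjusted p = 0.184). For JUNB the value was 1.16 ± 0.51 (SE, adjusted p = 0.658, edgeR), for NR4A3 1.17 ± 0.48 (SE, adjusted p = 0.615, edgeR) and for ATF3 0.99 ± 0.42 (SE, adjusted p = 0.624, edgeR). The FOS difference of 1.12 ± 0.80 (SE, adjusted p = 0.839, edgeR) had the largest error, and it lay between 0.59 without PL pig 8 and 1.98 without PUL pig 4. EGR1, IER2 and IER5 had log2 fold changes of 0.93, 0.71 and 0.85, with unadjusted p of 0.233, 0.141 and 0.0616 in the same edgeR fit. Leaving out 1 library moved EGR1 to between 0.32 (without PL pig 8) and 2.04 (without PUL pig 4), IER5 to as little as 0.25 (without PL pig 8) and IER2 to as much as 1.08 (without PUL pig 4). The member median in LD was 0.68 without PL pig 8 and 1.36 without PUL pig 4.

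In S, again no member passed the threshold with edgeR's quasi-likelihood test, as 0.0% of the 10687 genes tested did, although 1252 genes had an unadjusted p under 0.05. Of the members, 6 of 8 were higher in PL (52.6% of all genes), with a median log2 fold change of 0.28 against 0.02 over all genes. NR4A2 alone had an unadjusted p under 0.05 with PL higher, where 5.38% of all genes did. Its log2 fold change was 1.68 ± 0.48 (SE, unadjusted p = 0.00264, edgeR's quasi-likelihood test, adjusted p = 0.219). DESeq2 called NR4A2 (adjusted p = 0.0420) among 103 genes, 0.964% of those tested, and edgeR's exact test did not (adjusted p = 0.0648). Over all alternatives other than leaving out 1 library, the adjusted p of NR4A2 in S lay between 0.0420 and 0.319. The study lists NR4A2 as higher in PL in S, from these same pigs. Its rule asked for significance by more than 1 of edgeR, DESeq2 and baySeq, with the same fold change minimum. The NR4A2 difference here is therefore not independent evidence. EGR1 had the opposite sign in S, at -1.16 ± 0.67 (SE, adjusted p = 0.498, edgeR), and it moved to -0.35 without the S library of PUL pig 1, the highest of its group. IER2 was at -0.30 ± 0.39 (SE, adjusted p = 0.776, edgeR), and FOS, JUNB and ATF3 were all between 0.25 and 0.29, well inside their errors of 0.47 to 0.63. NR4A3 was at 1.01 ± 0.85 (SE, adjusted p = 0.640, edgeR), between 0.34 without PL pig 15 and 1.63 without PUL pig 1, and IER5 was at 0.54 (adjusted p = 0.694, edgeR), between 0.35 without PL pig 7 and 0.87 without PUL pig 1. Without the S library of PUL pig 1, FOS was at 1.05 and the member median at 0.77, and the median was as low as 0.16 without PUL pig 13.

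The breed comparisons in LD and S rest on the same 16 pigs and are not separate evidence. When the counts of both muscles were summed per pig, a fit added after seeing the data, no member was called by edgeR's quasi-likelihood test, which called 0.0333% of the 12008 genes tested and gave an unadjusted p under 0.05 to 1612. NR4A2 was at 1.77 ± 0.49 (SE, unadjusted p = 0.00178, edgeR, adjusted p = 0.131). DESeq2 called it (adjusted p = 0.0445) among 223 genes (1.86%), as did edgeR without PUL pig 4 (log2 fold change 2.41, adjusted p = 0.0332), then 1 of 5 genes called or 0.0414%.

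**Figure D2:**
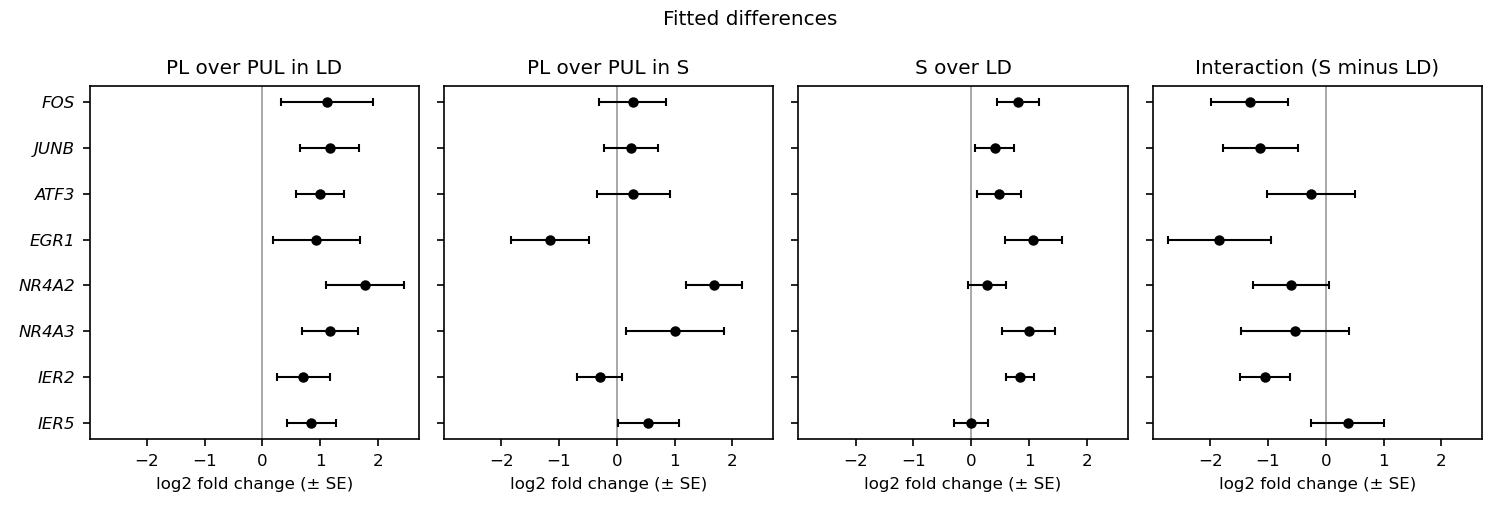
Fitted log2 fold changes (points) with standard errors (bars) from edgeR's quasi-likelihood fit, for PL over PUL in LD and in S, S over LD in the same pigs, and the interaction, which is the breed difference in S minus that in LD. All 8 points lie above 0 in LD and 7 of 8 lie below 0 for the interaction, and no point passed the threshold.

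Markers of some other cells differed in fitted level between the breeds, although none passed the threshold. Of the fibroblast markers, 6 of 6 tested were higher in PL in LD, where 50.8% of all genes were. In S it was 6 of 6 (52.6% of all genes). An unadjusted p under 0.05 with PL higher was reached by 5 in LD (3.64% of all genes) and 4 in S (5.38%, edgeR). Their summed level was 253 to 2360 CPM in PUL LD and 540 to 5519 CPM in PL LD. Red blood cell markers were summed at 31.8 to 283 CPM in PUL LD and at 104 to 1072 CPM in PL LD, with 2 of 3 tested genes higher in PL at an unadjusted p under 0.05 and the third, *SLC4A1*, at -0.38 (unadjusted p = 0.218, edgeR). Macrophage markers were higher in PL for 5 of 5 tested in LD and in S, none with an unadjusted p under 0.05 (edgeR). Of the endothelial markers, 3 of 6 tested were higher in PL in LD, with a median log2 fold change of 0.01. The part of such cells in the members' differences was not tested. In these bulk samples, more cells of a type and more RNA per cell cannot be told apart.

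The high values of hepatocyte genes were those of PUL pigs 1 to 5, in which their summed level in LD was 36.3 to 179 CPM against 9.14 to 25 CPM in PUL pigs 13, 16 and 17 and 10.5 to 21.2 CPM in PL. In S the same sums were 28.7 to 1636 CPM, 24.0 to 68.0 CPM and 10.3 to 35.4 CPM. Without PUL pigs 1 to 5, the 3 PUL pigs left are all among the 4 with the lowest FOS. The FOS difference in LD was then 4.88 ± 0.81 (SE, adjusted p = 0.155, edgeR) and in S 2.68 ± 0.49 (SE, adjusted p = 0.157, edgeR), the member medians became 1.95 in LD and 1.72 in S, and EGR1 in S changed sign to 0.24, with no member called in either muscle (0.00879% of all genes in LD and 0.0088% in S). Over both muscles summed, FOS was called in this smaller set (log2 fold change 3.42 ± 0.49 SE, adjusted p = 0.0336, edgeR), 1 of 5 genes called or 0.0399%. With the level of hepatocyte genes as a covariate, no member was called in either muscle (0.0% of all genes in LD and 0.168% in S), and the member medians were 1.90 in LD and 1.28 in S. High values of this covariate occurred in PUL pigs 1 to 5 alone, so it cannot be fully told apart from breed. The fit is therefore not separate evidence from leaving those pigs out. The part of the hepatocyte RNA in these differences was not tested further.

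Between the muscles of a pig, no member passed the threshold, with the pig as a block in edgeR's quasi-likelihood test, which called 13 of 11563 genes (0.112%) and gave 677 an unadjusted p under 0.05, and none was called among the 60 genes (0.519%) that DESeq2 called. The fitted level was higher in S for 7 of 8 members, where 46.4% of all genes were, and 4 members had an unadjusted p under 0.05 with S higher, against 3.32% of all genes. The members' median log2 fold change (S over LD) was 0.65, against -0.01 over all genes. IER2 had the smallest p, at 0.85 ± 0.24 (SE, unadjusted p = 0.00239, edgeR, adjusted p = 0.396), and 13 of 16 pigs had more IER2 in S. EGR1 was at 1.07 ± 0.49 (SE, adjusted p = 0.823, edgeR) with 12 of 16 pigs higher in S, NR4A3 at 0.99 ± 0.46 (SE, adjusted p = 0.830, edgeR) with 12 of 16, and FOS at 0.81 ± 0.36 (SE, adjusted p = 0.812, edgeR) with 11 of 16. IER5 was at -0.01 ± 0.30, with S higher in 8 of 16 pigs. Without PL pig 14 the same test called 85 of 11678 genes (0.728%) and gave 1567 an unadjusted p under 0.05, against 4 to 15 called when any other single pig was left out. The members were still not called, with a median of 0.78 and 4 of 8 at an unadjusted p under 0.05.

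The fitted S over LD differences were larger in PUL than in PL for 7 of 8 members. JUNB, EGR1 and IER2 were each higher in S in 8 of 8 PUL pigs, and in 4, 4 and 5 of 8 PL pigs. FOS, ATF3, NR4A2, NR4A3 and IER5 were higher in S in 6, 5, 7, 7 and 3 PUL pigs, and in 5, 4, 5, 5 and 5 PL pigs. The share of all genes that were higher in S in 8 of 8 PUL pigs was not counted. In PUL pigs alone, EGR1 had a log2 fold change of 1.95 ± 0.38 (SE, adjusted p = 0.162, edgeR), FOS 1.48 ± 0.41 (SE, adjusted p = 0.344, edgeR) and IER2 1.39 ± 0.33 (SE, adjusted p = 0.241, edgeR), and in PL pigs alone the same genes were at 0.11 ± 0.75, 0.16 ± 0.46 and 0.34 ± 0.27. The member median was 1.09 in PUL and 0.17 in PL. The difference between the breeds was itself tested as the interaction, in which no member passed the threshold, as 0.0% of the 11563 genes tested did, and 294 genes had an unadjusted p under 0.05 (edgeR's quasi-likelihood test), while DESeq2 called 1 gene (0.00865%), which was no member. It was below 0 for 7 of 8 members, where 48.2% of all genes were, with a median of -0.83, and 1 of 8 members had an unadjusted p under 0.05, against 2.54% of all genes. EGR1 was at -1.84 ± 0.89 (SE, unadjusted p = 0.0541, edgeR), FOS at -1.31 ± 0.67 (SE, unadjusted p = 0.0654, edgeR) and IER2 at -1.06 ± 0.43 (SE, unadjusted p = 0.0245, edgeR), and the adjusted p was 1.0 for each of the members. Without PL pig 14 the interaction median was -0.53, and without PL pig 8 it was -0.58.

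**Figure D3:**
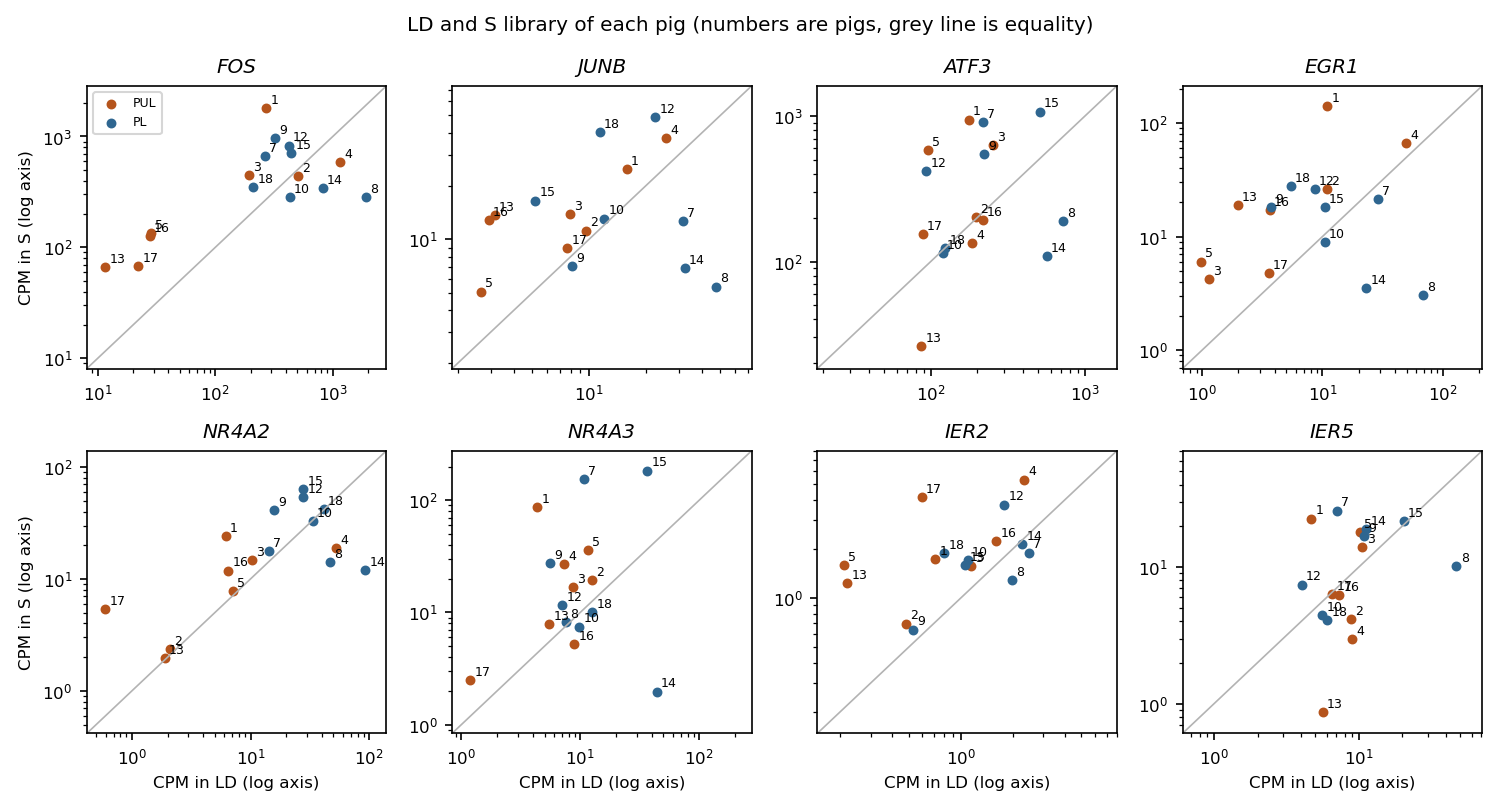
LD level (horizontal) against S level (vertical) of each pig, in CPM on log axes, with pig numbers beside the points and a grey line where both are equal. FOS of PUL pigs 5, 13, 16 and 17 is low in both muscles, whereas PL pigs 8 and 14 lie to the lower right for FOS, JUNB, ATF3 and EGR1.

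Whether the muscles of a pig agreed was measured by the correlation of log2(CPM + 0.5) in LD and S over 16 pigs. No member reached an adjusted p of 0.05 in the permutation test, which called 2.05% of 11563 genes (237) and gave 16.8% an unadjusted p under 0.05. For FOS the pooled r of 0.71 (rho = 0.43) spans the cluster of 4 low PUL pigs and the other 12 pigs, with a permutation p of 0.00202 for r and 0.0987 for rho, and an adjusted p of 0.0673 for r. Over those other 12 pigs no positive relation was left, with r at -0.38 and rho at -0.36. The 4 pigs were set apart by these same FOS values. Leaving them out narrows the range in both muscles, which lowers r by itself. Without the 2 pigs farthest from the LD median, r was 0.46. For NR4A2, r was 0.68 (permutation p = 0.00399, adjusted p = 0.0930) and rho 0.55 (permutation p = 0.0285). Without the 2 farthest pigs its r was 0.53, and as deviations from the breed means 0.40. IER2 had an r of 0.47 (permutation p = 0.0663, adjusted p = 0.336) and a rho of 0.54 (permutation p = 0.0342), and an r of 0.46 without the 2 farthest pigs. The r of the other 5 members lay between 0.16 and 0.30, while the median of all genes was 0.22.

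Single pigs decided part of this. Without PL pig 8, whose FOS level was the highest of 16 pigs in LD and ranked 6 from the lowest in S, FOS was called, with an r of 0.80 (permutation test, adjusted p = 0.0382), where 2.66% of all genes were. Without PL pig 14, NR4A2 was called, with an r of 0.77 (permutation test, adjusted p = 0.0371), where 3.53% of all genes were. Within breeds, all orders of the 8 pigs were enumerated. In PUL, r was 0.85 for FOS (exact permutation p = 0.0124, adjusted p = 0.275), 0.78 for EGR1 (exact permutation p = 0.0212, adjusted p = 0.297), 0.78 for JUNB (exact permutation p = 0.0259, adjusted p = 0.307) and 0.71 for NR4A2 (exact permutation p = 0.0457, adjusted p = 0.348), where 14% of all genes had an unadjusted p under 0.05. In PL, r was -0.47 for FOS, -0.70 for EGR1 (exact permutation p = 0.0531, adjusted p = 0.927), -0.28 for JUNB and -0.44 for NR4A2. The other members were not negative in either breed. For IER2, r was 0.61 in PUL and 0.56 in PL, and for IER5 0.15 and 0.37. For ATF3 it was 0.44 in PUL and 0.07 in PL, and for NR4A3 0.44 and 0.01. Over all genes the median r was 0.36 in PUL and 0.02 in PL, and the difference between the breeds was not tested.

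**Figure D4:**
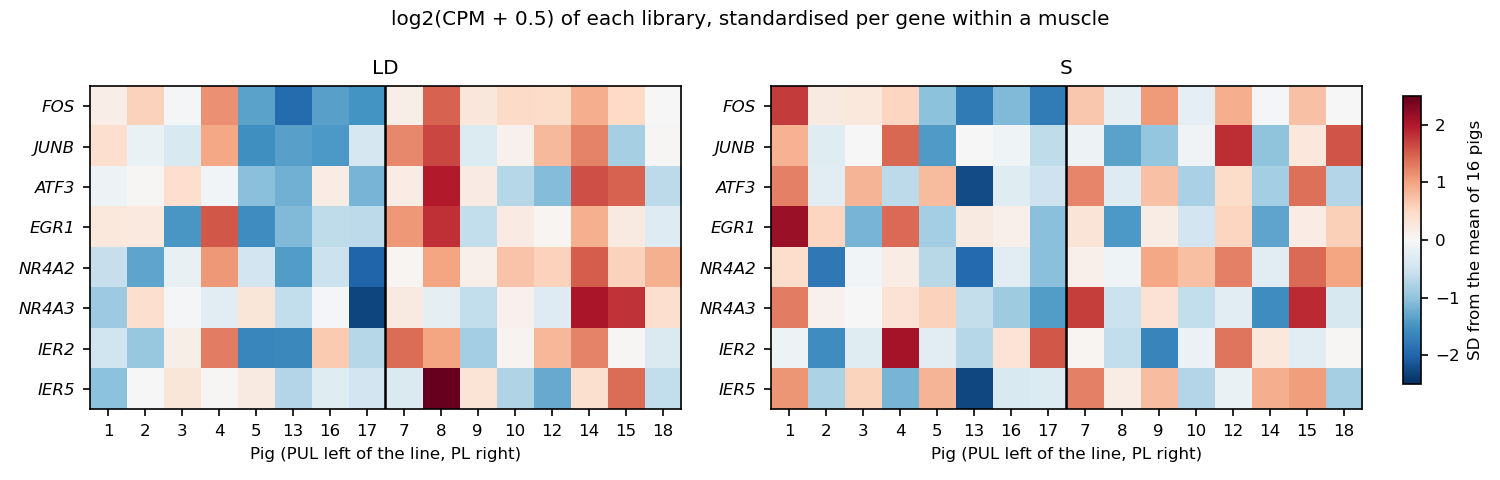
Standardised log2(CPM + 0.5) of each gene (rows) in each library (columns, by pig), within LD and within S, in SD from the mean of 16 pigs. PL pigs 8 and 14 are red over most rows in LD and pale or blue in S for FOS, JUNB, ATF3 and EGR1, and PUL pig 13 is blue in LD over all rows.

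The members were described together by their place among the 16 pigs of a muscle. In LD, PL pig 14 was among the 4 highest for 8 of 8 members and PL pig 8 for 7 of 8, while PUL pig 13 was among the 4 lowest for 8 of 8. In S, PUL pig 1 was among the 4 highest for 6 of 8 members, PL pigs 12 and 15 for 5 of 8 each, and PUL pig 13 among the 4 lowest for 5 of 8. PL pig 14 was among the 4 lowest in S for 4 of 8.

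The members varied together across pigs. Over 16 pigs, the 28 pairs had a median r of 0.56 in LD (0.10 to 0.85) and of 0.42 in S (-0.31 to 0.85), and r was over 0.5 for 17 of 28 pairs in LD and 10 of 28 in S, where 10.7% and 8.39% of all pairs of tested genes were. Points of a pair share their library and its scaling factor. The r values also pool both breeds, and as deviations from the breed means r was lower for every pair in LD. The median r of the members with FOS was then 0.54 in LD and 0.59 in S, against 0.63 and 0.53 over the pooled pigs. No difference between the muscles is read from these medians, and none was tested. JUNB and EGR1 were the closest pair in LD (r = 0.85) and stayed close in S (r = 0.71). ATF3 and IER5 had an r of 0.80 in LD and of 0.85 in S, where the latter was the highest of all pairs. ATF3 and NR4A3 had an r of 0.57 in LD and of 0.75 in S. By contrast, JUNB and ATF3 had an r of 0.43 in LD and of 0.0033 in S.

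FOS was set against each other gene. No gene of 11562 reached an adjusted p of 0.05 in either muscle (0.0% called, permutation test), and 798 genes in LD (6.9%) and 787 in S (6.81%) had an unadjusted p under 0.05. In LD, JUNB had an r of 0.80 with FOS (permutation p = 0.00022, adjusted p = 0.363) and a rho of 0.71 (permutation p = 0.00258), and ranked 8 among all genes by size of r. EGR1 ranked 9, with an r of 0.79 (permutation p = 0.00049, adjusted p = 0.462) and a rho of 0.82 (permutation p = 0.00015). Over the 12 pigs outside the low FOS cluster, r was 0.60 for JUNB and 0.80 for EGR1, and for NR4A2 it was 0.47, against 0.75 over 16 pigs. These 12 pigs were chosen by their FOS values, which narrows the range of FOS and alters r by itself. In neither muscle is r over them a separate check. In S the closest member was NR4A2, with an r of 0.66 (permutation p = 0.00567, adjusted p = 0.653), which was 0.31 over the 12 pigs. ATF3 had an r of 0.65 with FOS in S (permutation p = 0.00628, adjusted p = 0.653), and 0.74 over the 12 pigs. The r of IER2 with FOS was 0.62 in LD and -0.11 in S.

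**Figure D5:**
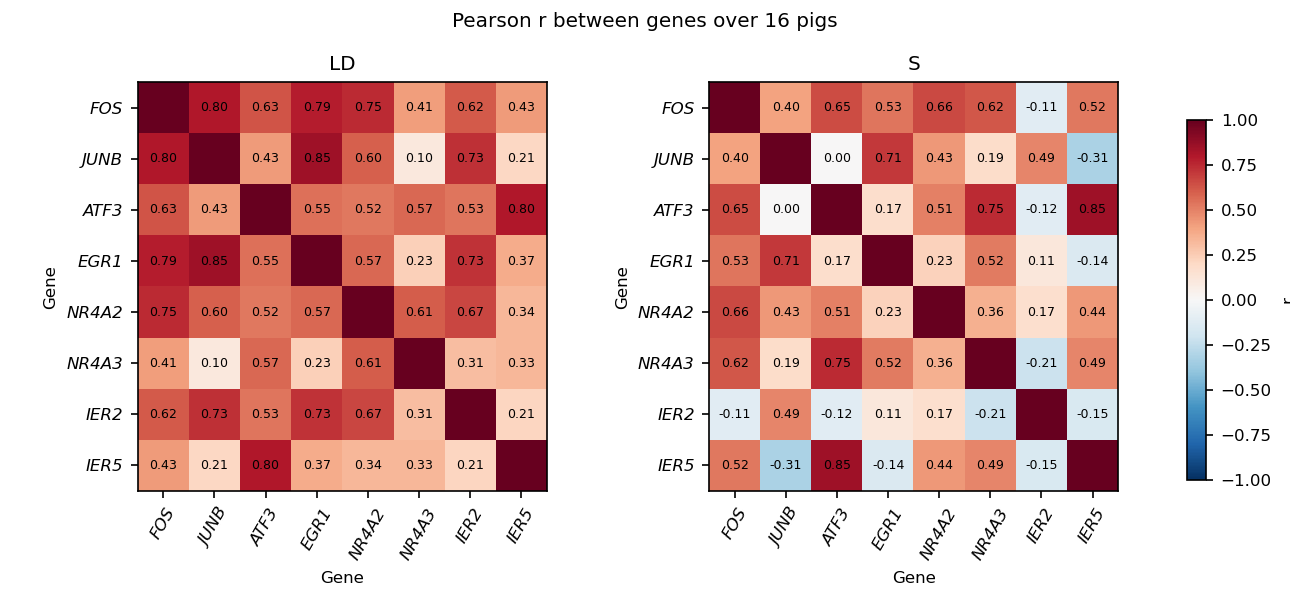
Pearson r between each pair of genes over 16 pigs, in LD and in S, with the value in each cell. FOS, JUNB and EGR1 have high r with each other in LD. In S, ATF3 has high r with NR4A3 and IER5, whereas NR4A3 with IER5 is at 0.49. FOS in S is at 0.65 with ATF3 and 0.62 with NR4A3, so these genes are not separate blocks.

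Across all 32 libraries, the genes outside the set whose deviations from the group means were most like the mean of the members included *DUSP1* (r = 0.84), a phosphatase that switches off MAP kinases, *CCN1* (r = 0.78), a secreted matrix protein of the immediate early class, *PPP1R3C* (r = 0.77), a glycogen-targeting subunit of protein phosphatase 1, and *CSRNP1* (r = 0.75), *OTUD1* (r = 0.72), *MAFF* (r = 0.71) and *EGR2* (r = 0.70). The other 3 of the 10 most alike carry only an Ensembl ID (ENSSSCG00000030839, ENSSSCG00000028322 and ENSSSCG00000010708), with r of 0.73 to 0.78. The median r over 11563 genes was 0.01.

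Other genes of the response were counted by list. Of the 10 other immediate early genes tested, 8 were higher in PL in LD (50.8% of all genes), 2 of them with an unadjusted p under 0.05 (3.64% of all genes, edgeR). In S, 5 of the 10 were higher in PL (52.6% of all genes), none of them with an unadjusted p under 0.05 (5.38% of all genes), and their median log2 fold change was -0.01. Between muscles, 8 were higher in S than in LD (46.4% of all genes), 4 of them with an unadjusted p under 0.05 (3.32%), and none of the 10 passed the threshold in these comparisons. *KLF4*, a zinc finger factor, was at 0.92 ± 0.38 (SE, adjusted p = 0.615, edgeR) for PL over PUL in LD, and *EGR2*, a relative of EGR1, at 1.12 ± 0.41 (SE, adjusted p = 0.650, edgeR) for S over LD. *KLF10* had the largest breed difference of the 10 in S, at 1.12 ± 0.68 (SE, adjusted p = 0.516, edgeR). Its interaction was 1.47 ± 0.64 (SE, unadjusted p = 0.0355, edgeR), opposite in sign to that of most members. The interaction was above 0 for 4 of the 10. *IER3* was lower in PL, at -0.68 in both LD and S. *MAFF*, a small bZIP protein without an activation domain of its own, was 1 of 2 other AP-1 relatives tested, at 1.02 ± 0.37 (SE, adjusted p = 0.555, edgeR) in LD for PL over PUL. Among 6 stress response genes, *GADD45B* was at 0.91 ± 0.36 (SE, adjusted p = 0.607, edgeR) in LD. The 5 MAP kinase feedback inhibitors tested and the 10 upstream factors tested (kinases and factors such as SRF and MEF2D that drive immediate early genes) had no gene with an unadjusted p under 0.05 for breed in LD, breed in S or S over LD, and their median log2 fold changes lay between -0.05 and 0.22 there. Of 7 glucocorticoid and fasting genes tested in each muscle, 4 were higher in PL in LD and 3 in S, and none passed the threshold. *ANGPTL4*, a secreted inhibitor of lipoprotein lipase, was at 0.87 ± 0.30 (SE, unadjusted p = 0.00923, edgeR, adjusted p = 0.534) in LD. In S, *FKBP5*, a target of the glucocorticoid receptor, was at -1.61 ± 0.63 (SE, adjusted p = 0.353, edgeR) for PL over PUL. Of 6 NFKB and cytokine feedback genes tested in S, 5 were higher in PL, with a median of 0.30 over the list and *NFKBIA*, the inhibitor of NFKB, at 0.35 (unadjusted p = 0.043, edgeR, adjusted p = 0.416). The remaining gene, *CXCL2*, a chemokine, was lower in PL, at -1.3 ± 0.51 (SE, adjusted p = 0.360, edgeR).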

How the data were processed

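The authors removed adapters and low-quality reads from single-end reads of rRNA-depleted RNA, aligned them to Sscrofa10.2 with Bowtie 2 and deposited the expected counts per gene that RSEM estimated. The submitters' processing notes also name CASAVA 1.8.2. The values are not normalized, and 14.7% of them are not whole, so they were rounded. The isoform table was not used. Symbols came from a table of gene names, which matched 11804 of 25322 IDs, and no sequences or coordinates of Sscrofa10.2 were used, so a planned search of promoters was not run.

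From there, R 4.3.3 with edgeR 4.0.16 was used: filterByExpr, TMM factors, glmQLFit and glmQLFTest, with Benjamini-Hochberg adjustment over all genes tested. CPM (cpm in edgeR) were scaled with TMM factors over 32 libraries, and correlations used log2(CPM + 0.5) with 100000 permutations for 16 pigs and all 40320 orders of 8 pigs within breeds. The standard error of a log2 fold change was taken from the F statistic. The tests were run on simulated data first. These had known changes and the same set variability for every gene, which is simpler than the data here. Such runs try the code and do not measure error rates or power for these data. Alternatives used DESeq2 1.42.0, edgeR's exact test and the settings of the closing section.

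Groups came from the labels. LD and S were paired within pigs by the pig number in the labels, and the correlation of their deviations from the group means over all tested genes was 0.0427 to 0.622 in PUL (median 0.415) and -0.499 to 0.622 in PL (median 0.120). Libraries are separate pigs, and no pair of a group agreed within sampling noise (lowest chi-square per degree of freedom 32.1). The members, the lists and the tests were chosen with earlier results of these data known. All members are named. Of the other lists only some genes are named, and these are not in every comparison the ones with the largest changes. PUL pigs 1 to 5 were set apart for their hepatocyte RNA, and the cluster of 4 pigs with low FOS was noticed in the values.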

Additional observations from a re-analysis of the deposited data

Results flagged for a closer look

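Among 32 groups of 8 libraries (8 genes in 4 groups), 10 held a highest library that lay apart from the next. The gap was above Dixon's 95% critical value of 0.526 of the range. That value holds for normally distributed data, whereas CPM are skewed to high values. The usual rate of 1 in 20 does therefore not apply, and the 10 flags cannot be read as an excess of outliers. All 10 were high values, on the CPM scale, and the rule was not applied to log2 values.

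In PUL LD, pig 4 stood apart for FOS (1146 CPM, the next at 501), EGR1 (49.6 CPM, the next at 11) and NR4A2 (53.0 CPM, the next at 10.3). In PL LD, pig 8 stood apart for FOS (1901 CPM, the next at 818), EGR1 (68.3 CPM, the next at 28.9) and IER5 (47.2 CPM, the next at 20.4), and pig 14 for NR4A2 (93.0 CPM, the next at 47.2). In PUL S, pig 1 stood apart for FOS (1798 CPM, the next at 584), EGR1 (141 CPM, the next at 66.0) and NR4A3 (87.5 CPM, the next at 35.9). The 10 values come from only 4 libraries, and none of the PL S libraries was among them.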

How the results depend on the processing

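The counts of members past the threshold stayed at 0 in 178 of 184 alternatives. The count was 1 for breed in S with DESeq2 (NR4A2), and for breed over both muscles with DESeq2 (NR4A2) and without PUL pigs 1 to 5 (FOS). Leaving out 1 pig gave 0 to 1 for breed over both muscles (1 without PUL replicate 4) and 0 to 1 for correlated muscles (1 without PL replicate 2 and without PL replicate 6), and 0 for the other counts.

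With the replicate number of the titles as a block across breeds, 0 members were called in LD and 0 in S, and JUNB in S turned to -0.082. The numbers belong to different pigs, their deviations correlated from -0.29 to 0.53 in LD and from -0.30 to 0.19 in S, and only 2 of 8 PUL libraries in LD and 1 of 8 in S correlated best with the PL library of the same number. Without the pig as a block, 0 members were called between muscles, NR4A2 turned to -0.066 and IER5 to 0.11 for S over LD, and IER5 to -0.30 for the interaction.

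Of 932 alternatives of single log2 fold changes, 34 changed sign. For breed in S, EGR1 turned to 0.047 with the hepatocyte covariate and to 0.24 without PUL pigs 1 to 5. For S over LD, in PL pigs alone JUNB turned to -0.21, NR4A2 to -0.013 and IER5 to 0.18, and IER5 also to 0.0022 with RLE factors and to 0.0059 with at least 10 counts in every library, a filter that leaves NR4A2 and IER2 out of this comparison and of that in LD. Over both muscles without PUL pigs 1 to 5, EGR1 turned to 1.13 and IER2 to -0.025. Leaving out 1 library or pig at a time gave ranges that crossed 0 for JUNB (-0.13 to 0.55) and ATF3 (-0.056 to 0.66) for breed in S, IER5 for S over LD (-0.15 to 0.15), ATF3 for the interaction (-0.57 to 0.11), and EGR1 (-0.40 to 0.34) and IER2 (-0.065 to 0.37) for breed over both muscles.

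Of 492 alternatives of single correlations, 11 changed sign. For LD with S in PL pigs alone, r was -0.47 for FOS, -0.28 for JUNB, -0.70 for EGR1 and -0.44 for NR4A2, and without PUL pigs 1 to 5 it was -0.14 for JUNB and -0.49 for EGR1. For IER2 with FOS in S, r was 0.0028 without the 2 farthest pigs, and leaving out 1 pig gave -0.23 to 0.10 for it and -0.061 to 0.54 for NR4A3 in LD with S. The cause of these changes was not tested.

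The depth limits IER2 most, with 3 to 77 counts per library, and 8 pigs a breed with this spread between pigs limit every breed comparison.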
